A study of Homo sapiens with 3 samples.

Results

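The mRNAs of 5 cyclin-dependent kinases (CDK1, CDK2, CDK4, CDK6 and CDK7) and of 5 CDK inhibitors (CDKN1A, CDKN1B, CDKN2A, CDKN2C and CDKN3) were followed through RNA pull-downs from J82, a human cell line established from a bladder cancer. They are the genes with these symbols in GENCODE 29, 10 of the 52989 genes to which the deposited transcripts could be joined. Lysate of J82 cells grown to 90% confluence was the source of RNA for each pull-down, and the RNA bound by 1 of 3 proteins was sequenced: wild-type ZFP36L1 fused to glutathione S-transferase (GST), a ZFP36L1-Ala mutant fused to GST, or GST without ZFP36L1. The labels do not say which residues the Ala mutation affects. Each protein had 1 library, so the differences have no replicate check and no p-value is given.

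The libraries held 19845386 estimated counts for wild-type ZFP36L1, 19153483 for the mutant and 19137867 for GST. Each member had a mean of more than 10 counts over the 3 libraries, the minimum set for a measured gene, and between 379 and 7454 counts in a library. ZFP36L1 mRNA itself had 35580 counts in the library of wild-type ZFP36L1, 2401 in that of the mutant and 3012 in that of GST. Of 13 urothelial and epithelial markers 6 were measured, with KRT5, KRT19 and UPK3A at 0 in each library, and the list summed to 197 CPM with wild-type ZFP36L1, 1775 CPM with the mutant and 963 CPM with GST. The 3 mesenchymal markers, led by VIM, summed to 207, 1724 and 2240 CPM in the libraries of wild type, mutant and GST. Single genes within both lists went the other way: PPARG had 128 CPM with wild-type ZFP36L1, 32.3 with the mutant and 22.1 with GST, and FN1 had 70.3 CPM with wild-type ZFP36L1, 15.4 with the mutant and 30.4 with GST. No leukocyte, erythroid or hepatocyte marker was measured. The only endothelial marker, PECAM1, was not among the genes joined to the deposited transcripts, so it could not be measured. The part of these markers in the results was not tested. A ratio was called higher or lower when it reached 2-fold, with libraries scaled by edgeR's TMM factors, and its 95% interval (exact Clopper-Pearson, counting error only) left out 1. These ratios compare shares of a library, not amounts of RNA bound. The GST table carries another run code than the other tables, so run and protein cannot be told apart in comparisons with GST.

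Cyclin-dependent kinases drive the cell cycle when a cyclin binds them: CDK4 and CDK6 act with D-type cyclins in G1, CDK2 with cyclins E and A at the start of DNA synthesis, and CDK1 with cyclins A and B in mitosis. CDK7 activates the other kinases by phosphorylating them, as part of the CDK-activating kinase with cyclin H and MNAT1. Inhibitors of the CIP/KIP family (p21 from CDKN1A, p27 from CDKN1B) bind kinases with their cyclins, and those of the INK4 family (p16 from CDKN2A, p18 from CDKN2C) bind CDK4 and CDK6. ZFP36L1 promotes decay of mRNAs whose 3' untranslated regions (3' UTRs) hold AU-rich elements, with UAUUUAU as the core site and the pentamer AUUUA inside it.

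The core site was present in 3 members and missing from the other 7, as judged from the 3' UTR of each gene's most abundant protein-coding transcript (by mean TPM). It is shown here as DNA of the mRNA strand, from GENCODE 29 on GRCh38, with TATTTAT in capitals, because these are the places where the known motif of the protein is found. The CDKN1B 3' UTR (1344 bases) held 2 sites, that of CDK6 (10219 bases) held 3, and that of CDK2 (1159 bases) held 1.
CDKN1B at chr12:12721533-12721562, plus strand: aagataattgcTATTTATttttacaagaag
CDKN1B at chr12:12722126-12722155, plus strand: ttatactaactTATTTATgttaaaagattt
CDK6 at chr7:92611229-92611258, minus strand: aaactcttagaTATTTATataattcaaaag
CDK6 at chr7:92607651-92607680, minus strand: ttcatgtatgtTATTTATttctgaatcaca
CDK6 at chr7:92605211-92605240, minus strand: gaaaatgtaggTATTTATtgtcagatgatg
CDK2 at chr12:55972538-55972567, plus strand: atgaacaattaTATTTATatttcaggttat
CDK1 had no core site but 5 pentamers in 877 bases, each outside a heptamer, and they are shown with ATTTA in capitals as the contrast to the sites above.
CDK1 at chr10:60794130-60794159, plus strand: tattctatatgaATTTAaatataattctgt
CDK1 at chr10:60794295-60794324, plus strand: ggaactactaaaATTTAggaaaatgctaag
CDK1 at chr10:60794504-60794533, plus strand: aaatgatgctaaATTTAtaggagttttcag
CDK1 at chr10:60794614-60794643, plus strand: acagttttgaaaATTTAtgaactatcttat
CDK1 at chr10:60794793-60794822, plus strand: gctctaatgtatATTTAactaaaattacta

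The remaining members had pentamers only or neither motif. CDKN1A had 3 pentamers in 1539 bases, CDKN2A 2 in 233 bases and CDKN2C 1 in 288 bases. Per kilobase CDKN2A had 8.58, above CDK1 at 5.70. With its longest annotated 3' UTR (591 bases) CDKN2A came to 3.38, below CDK1. CDK4 (1022 bases), CDK7 (170 bases) and CDKN3 (136 bases) had none of either motif. The 3' UTR and base composition of CDK4 are those of CDK4-202 in GENCODE 29, which is longer there (1650 bases) than in the deposited tables (1000 bases). Only the mRNA strand was searched. Of 11449 measured genes with an annotated 3' UTR, 3554 held UAUUUAU and 7770 (67.9%) held AUUUA. With the longest annotated 3' UTR in place of the most abundant transcript, no member's number of core sites differed, and CDK7 gained 1 pentamer.

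Comparing wild-type ZFP36L1 with GST asked which of these mRNAs took a larger share with the fusion protein than in the background. CDK7, CDK1 and CDK6 were about 3-fold to 4-fold higher and CDK4 was 6.62-fold lower, so that kinases stood on both sides. Among the inhibitors CDKN2C and CDKN1B were higher and none was lower. In all, 5 of 10 members were higher, against 25.5% of the 14081 genes measured, and 1 was lower, against 34.2%. The median log2 ratio was 1.53 for the 5 kinases and 0.52 for the 5 inhibitors, beside -0.04 for all measured genes. In the direct comparison of wild-type with mutant ZFP36L1, which asked what the Ala mutation altered, 5 of 10 were again higher, against 30.1% of all genes, and 1 lower, against 36.0%. These comparisons share the wild-type library.

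**Figure D1:**
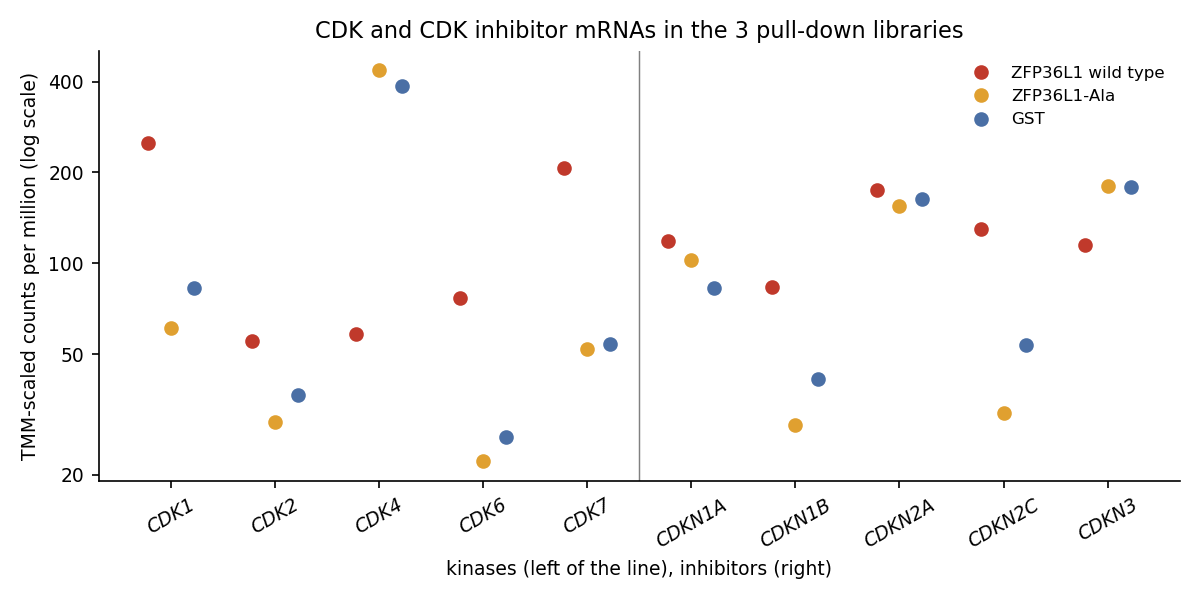
TMM-scaled CPM (log axis) of each mRNA in the wild-type ZFP36L1, ZFP36L1-Ala and GST libraries, 1 point per library. CDK4 lies at 58.6 with wild-type ZFP36L1, against 436 with the mutant and 388 with GST, while CDK1 and CDK7 lie highest with the wild-type protein.

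CDK7 (ENSG00000134058, chr5:69234795-69277430, plus strand, GRCh38 as for all genes below), the catalytic subunit of the CDK-activating kinase, had 4146 estimated counts with wild-type ZFP36L1, 890 with the mutant and 1022 with GST. The wild-type library stood apart from the other 2, which lay close together. Its log2 ratio of wild type to GST was 1.94 (1.84 to 2.04), higher than in 93.9% of measured genes, and wild type was 3.99-fold above the mutant (log2 interval 1.89 to 2.10). CDK7 had neither core site nor pentamer in its 3' UTR.

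CDK1 (ENSG00000170312, chr10:60778331-60794852, plus strand), the mitotic kinase, had 4988 estimated counts with wild-type ZFP36L1, 1046 with the mutant and 1564 with GST. It was highest with the wild-type protein and lowest with the mutant. The log2 ratio was 1.59 (1.51 to 1.67) over GST and 2.03 (1.93 to 2.13) over the mutant.

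CDK6 (ENSG00000105810, chr7:92604921-92836594, minus strand), which acts in G1 beside CDK4, had 1533 estimated counts with wild-type ZFP36L1, 379 with the mutant and 501 with GST. It was highest with the wild-type protein, at a log2 ratio of 1.53 (1.38 to 1.68) over GST and 1.79 (1.63 to 1.96) over the mutant. Both calls were lost once a trend fitted over all genes in GC content and length of the transcript was subtracted, at 0.37 over GST and 0.18 over the mutant. Nearly all of its counts belonged to a single transcript of 11612 bases, CDK6-201, which carries the 3 sites shown above.

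CDK2 (ENSG00000123374, chr12:55966769-55972784, plus strand), the S-phase kinase, had 1109 estimated counts with wild-type ZFP36L1, 513 with the mutant and 695 with GST. The order of the libraries was that of CDK1 and CDK6, over a narrower range. Its ratio of wild type to GST stayed under 2-fold, at log2 0.59 (0.45 to 0.73). That of wild type to mutant was 0.89 (0.74 to 1.04), and it passed 2-fold when scaled to total counts (1.05).

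CDK4 (ENSG00000135446, chr12:57747727-57756013, minus strand), the partner of cyclin D in G1, went the other way. It had 1169 estimated counts with wild-type ZFP36L1, 7454 with the mutant and 7314 with GST. The mutant and GST lay together and the wild type far below them, with a log2 ratio of -2.73 (-2.82 to -2.64) over GST and -2.89 (-2.99 to -2.81) over the mutant. Lower ratios to GST were found in 15.7% of measured genes. TSPAN31 overlaps CDK4 on the opposite strand over 2485 bases, and 38.6% of the 31-mers of CDK4 also occur in transcripts of other genes, TSPAN31 among them. Reads of the overlap cannot be told apart without strand. TSPAN31 had 104 estimated counts with wild-type ZFP36L1, 125 with the mutant and 156 with GST.

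**Figure D2:**
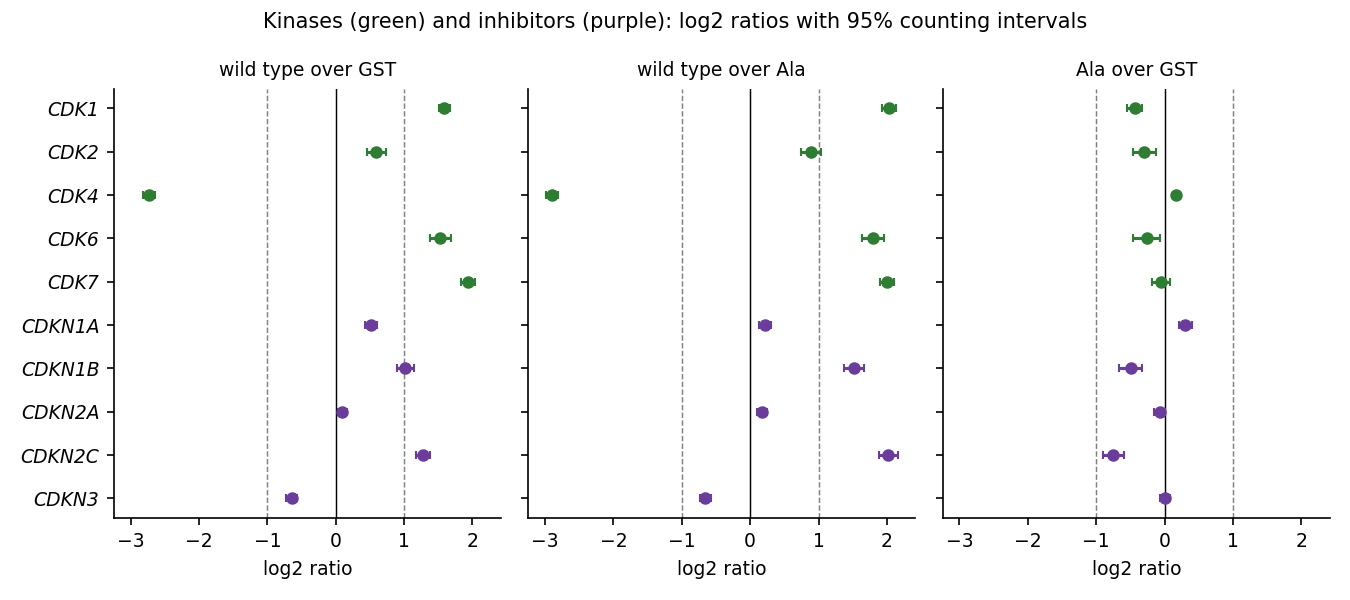
Log2 ratio of each mRNA for wild type over GST, wild type over Ala and Ala over GST, with 95% counting intervals (bars), kinases in green and inhibitors in purple; dashed lines mark 2-fold. Both comparisons with the wild-type library spread from below -2 (CDK4) to about 2, while all points of Ala over GST lie between -0.75 and 0.30.

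Of the inhibitors, CDKN2C showed the largest ratios as measured. With the GC and length trend subtracted, CDKN2A was above it over GST and over the mutant, and CDKN1A over GST. CDKN2C, an INK4 inhibitor (p18, ENSG00000123080, chr1:50960745-50974633, plus strand), had 2593 estimated counts with wild-type ZFP36L1, 547 with the mutant and 1013 with GST. The 3 libraries were well separated, with GST between the others. The log2 ratio of wild type was 1.27 (1.17 to 1.38) over GST and 2.02 (1.89 to 2.16) over the mutant.

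CDKN1B (p27; ENSG00000111276, chr12:12715058-12722371, plus strand), the inhibitor with 2 core sites, had 1673 estimated counts with wild-type ZFP36L1, 501 with the mutant and 780 with GST. It too was highest with the wild-type protein and lowest with the mutant. Its log2 ratio of 1.02 (0.90 to 1.14) over GST lay at the 2-fold limit and fell short of it with a minimum mean of 100 counts (0.97), while that over the mutant was 1.52 (1.37 to 1.66).

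CDKN1A (p21; ENSG00000124762, chr6:36676460-36687339, plus strand), the inhibitor induced by p53, had 2377 estimated counts with wild-type ZFP36L1, 1757 with the mutant and 1569 with GST. The wild-type library was again the highest, but the 3 lay close together. The log2 ratio of wild type was 0.52 (0.42 to 0.61) over GST and 0.21 (0.12 to 0.30) over the mutant, both under 2-fold. CDKN2A (ENSG00000147889, chr9:21967753-21995301, minus strand), which encodes p16 and, from another reading frame, p14ARF, had 3487 counts with wild-type ZFP36L1, 2654 with the mutant and 3077 with GST. Its gene total hardly differed, with log2 0.10 (0.03 to 0.17) over GST and 0.17 (0.10 to 0.24) over the mutant.

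CDKN3 (ENSG00000100526, chr14:54396849-54420218, plus strand), a phosphatase that removes the activating phosphate of CDK2, had 2293 estimated counts with wild-type ZFP36L1, 3093 with the mutant and 3388 with GST. It was the inhibitor with ratios below 0, at log2 -0.65 (-0.72 to -0.57) over GST and -0.65 (-0.73 to -0.58) over the mutant, and neither reached 2-fold.

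The mutant was set against GST to ask whether the mutated protein took any of these mRNAs beyond the background. None of the 10 members was higher and none lower by 2-fold, against 9.01% (1268 genes higher) and 5.13% (722 genes lower) of measured genes. That split depended on the scaling, with 778 higher and 1237 lower when totals left out mitochondrial genes, rRNA and the top 20 genes by abundance. The lowest ratio was that of CDKN2C, with 547 counts in the mutant library and 1013 in that of GST, at log2 -0.75 (-0.90 to -0.60). CDKN1B (-0.50, -0.66 to -0.33) and CDK1 (-0.44, -0.55 to -0.33) followed. CDKN1A had the highest ratio, log2 0.30 (0.20 to 0.40). Their counting intervals left out 0, but several depended on the processing. With the trend in GC content and length of the transcript subtracted, CDK1 turned to 0.13 (0.01 to 0.24), CDK6, at -0.26 as measured, to 0.25 (0.05 to 0.44), and CDKN1A to -0.04 (-0.14 to 0.06), while CDKN2A came to -0.68. CDKN2C (-0.79) and CDKN1B (-0.40) stayed below 0. So did CDK2, at -0.30 (-0.47 to -0.13) as measured and -0.26 (-0.43 to -0.10) with the trend subtracted. With the totals just named, CDKN1A came to 0.09 (-0.01 to 0.19). With TPM, CDKN2C passed 2-fold, at -1.02 with a pseudocount of 0.5 and -1.03 with 0.1. CDK4 stood at log2 0.17 (0.12 to 0.21), and at -0.05 with those totals. CDK7 (-0.06, -0.19 to 0.07), CDKN2A (-0.07, -0.15 to 0.00) and CDKN3 (0.01, -0.06 to 0.08) had intervals that included 0. Under that scaling the median of all genes moved by -0.21, and CDKN3 stood at -0.20.

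The order of the kinases by level changed with the protein used. TPM, which corrects for transcript length, was summed per gene from the deposited values. With wild-type ZFP36L1, CDK7 (185 TPM) and CDK1 (153 TPM) led the kinases, ahead of CDK4 (54.7 TPM), CDK2 (23.3 TPM) and CDK6 (5.95 TPM). With the mutant CDK4 led, at 299 TPM, followed by CDK7 (32.6 TPM), CDK1 (26.0 TPM), CDK2 (8.98 TPM) and CDK6 (1.32 TPM). With GST the order was CDK4 (316 TPM), CDK1 (43.4 TPM), CDK7 (40.7 TPM), CDK2 (13.4 TPM) and CDK6 (1.78 TPM). CDK4 thus made up 13.0% of the summed TPM of the 5 kinases with wild-type ZFP36L1, 81.3% with the mutant and 76.1% with GST. For the pair of G1 kinases, the TPM of CDK4 was 9.19 times that of CDK6 with the wild-type protein, 227 times with the mutant and 178 times with GST.

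The sum over the kinases hid this exchange. It was 421 TPM with wild-type ZFP36L1, 368 TPM with the mutant and 416 TPM with GST. Without CDK4 the other 4 kinases summed to 366 TPM with wild-type ZFP36L1, 68.9 TPM with the mutant and 99.3 TPM with GST. The inhibitors summed to 704 TPM with wild-type ZFP36L1, 488 TPM with the mutant and 611 TPM with GST, so that kinases over inhibitors came to 0.599 with the wild-type protein, 0.754 with the mutant and 0.681 with GST. CDKN2A and CDKN3 led the inhibitors in each library. CDKN2A had 314 TPM with wild-type ZFP36L1, 196 TPM with the mutant and 252 TPM with GST, and CDKN3 had 213 TPM with wild-type ZFP36L1, 231 TPM with the mutant and 278 TPM with GST. The other 3 were less abundant. CDKN2C had 93.4 TPM with wild-type ZFP36L1, 17.2 with the mutant and 35.3 with GST, CDKN1A had 53.5, 36.0 and 33.0 TPM in the libraries of wild type, mutant and GST, and CDKN1B had 29.95, 7.46 and 12.8 TPM in those libraries.

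**Figure D3:**
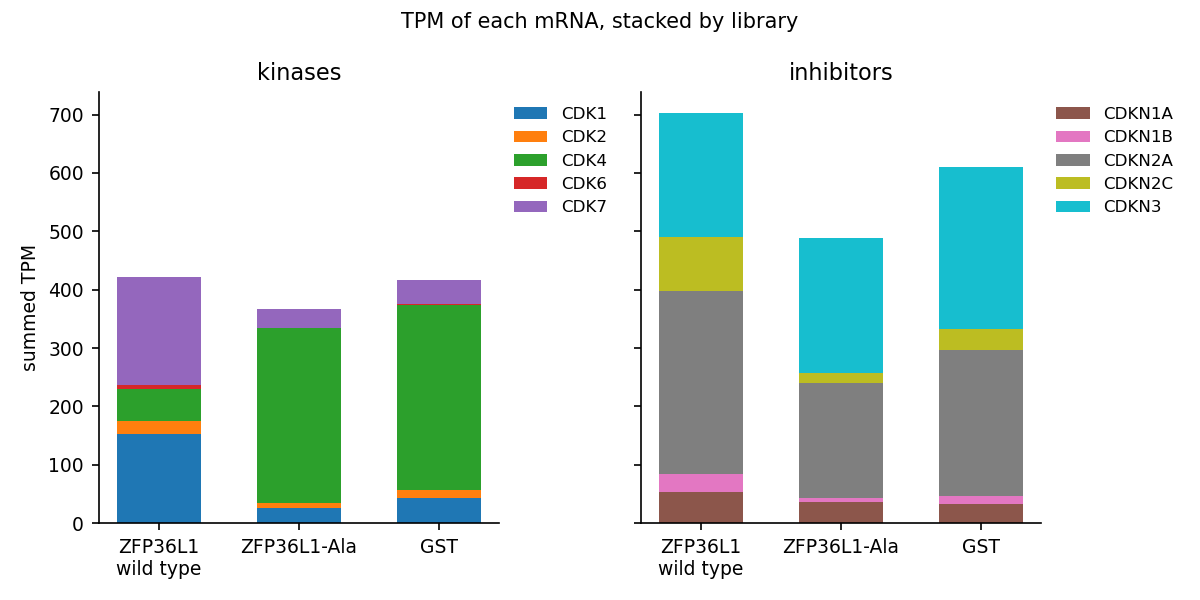
Deposited TPM summed per gene and stacked by library for the 5 kinases (left) and the 5 inhibitors (right). CDK4 is 13.0% of the kinase bar with wild-type ZFP36L1, 81.3% with the mutant and 76.1% with GST, while the heights of the kinase bars are 421, 368 and 416 TPM.

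Members with and without the core site were found among the higher mRNAs. Of the 3 members with UAUUUAU, 2 were higher than with GST in the wild-type library and CDK2 stayed under 2-fold. Of the 7 without it, 3 were higher (CDK1, CDK7 and CDKN2C) and 1 was lower (CDK4). Among all genes measured the shares were 25.5% higher and 34.2% lower. Over all measured genes with a 3' UTR, the median log2 ratio of wild type to GST was 0.94 with the core site and -0.68 without. For mutant over GST it was -0.22 with the core site and 0.14 without. These medians were not adjusted for base composition or length, and the part of either in them was not tested.

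Base composition moved with the ratio. Across all measured genes the ratio of wild type to GST was lower where the most abundant transcript was richer in GC (Spearman rho -0.59, a description across genes that share the same 2 libraries). It was -0.67 for wild type over mutant and 0.54, of opposite sign, for mutant over GST. The 3 kinases that were higher had GC contents of 33.7% (CDK1), 39.5% (CDK6) and 40.7% (CDK7), and CDK4 had 53.6%, beside a median of 48.0% over all genes. Subtracting a cubic trend in GC and log2 length of the transcript left CDK7 (1.41) higher and CDK4 (-1.70) lower than with GST, whereas CDK1 (0.68) and CDK6 (0.37) came under 2-fold. Of all members, the inhibitors CDKN1A and CDKN2A changed most. CDKN1A, with 57.7% GC, came to 2.01 and CDKN2A, with 58.6%, to 2.25, so that both passed 2-fold only with the fit removed. CDKN2C stayed higher, at 1.41, and CDKN1B came to 0.91. CDKN3, whose transcript had only 38.8% GC and a ratio below 0, came to -1.06. Relative to all genes, the medians of kinases and inhibitors were 1.57 and 0.55 as measured, and 0.69 and 1.45 with the fit removed, so their order depended on it. With that trend subtracted CDK2 stood at 0.66. Over the mutant, CDK1 (0.61) and CDK6 (0.18) likewise came under 2-fold, CDKN1A (2.11) and CDKN2A (2.99) passed it, and CDKN3 (-1.18) became lower. Apart from this, the part of base composition in these ratios was not tested.

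**Figure D4:**
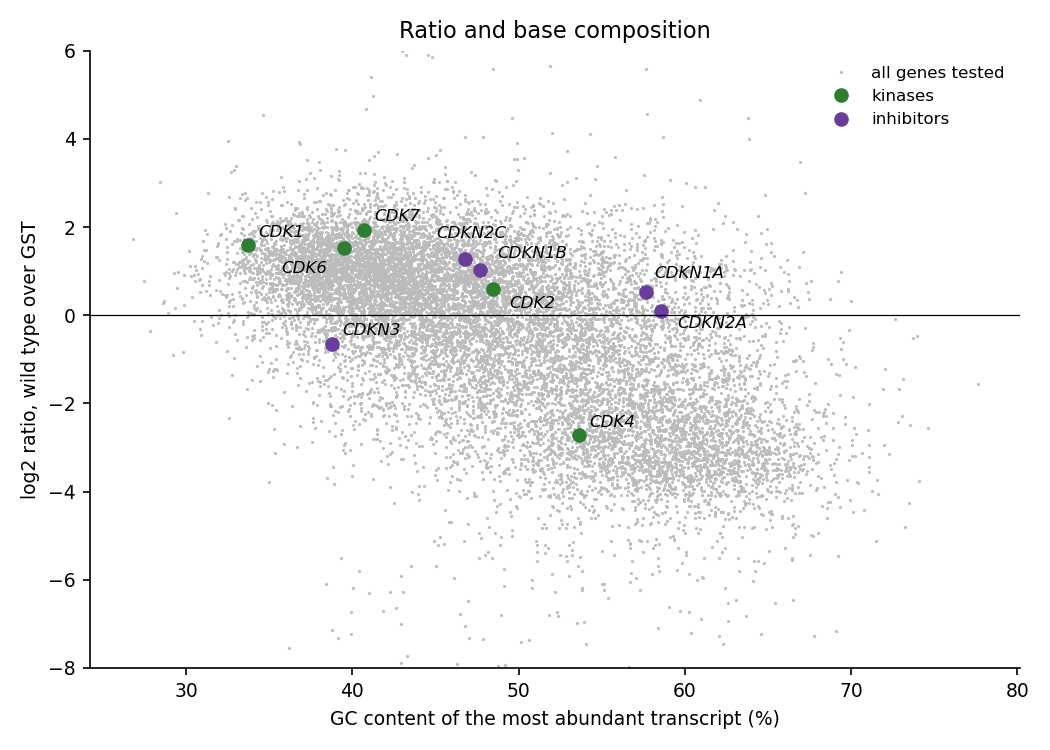
Log2 ratio of wild type over GST against the GC content of the most abundant transcript for all measured genes (grey; 37 genes beyond -8 or 6 are not drawn), kinases (green) and inhibitors (purple). CDKN1A and CDKN2A, at 57.7% and 58.6% GC, lie above 0, at 0.52 and 0.10, and CDKN3, at 38.8% GC, lies below 0, at -0.65.

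The 10 genes had 91 transcripts in the deposited tables, and protein-coding ones held between 97.4% (CDKN3 with the mutant) and 100% of each gene's counts in each library. CDK2, CDK6, CDKN1A and CDKN1B were read almost wholly through 1 transcript, whereas the counts of the others were divided among several transcripts. In CDK7 the shorter CDK7-211 held 93.9% of the counts with wild-type ZFP36L1, 89.9% with the mutant and 83.5% with GST. In CDK1 the transcript CDK1-202 held 92.9% with wild-type ZFP36L1, 81.2% with the mutant and 83.6% with GST. In CDKN2C the transcript CDKN2C-202 held 66.0% with wild-type ZFP36L1, 75.4% with the mutant and 76.3% with GST. CDK4 was divided much alike in each library, with 76.0% in CDK4-202 with wild-type ZFP36L1, 80.9% with the mutant and 77.6% with GST. CDK1-202 and CDK4-202 have no 31-mer absent from all other transcripts of their gene, CDK7-211 has 28 and CDKN2C-202 has 413. These shares thus rest on how shared reads were assigned, which the counting intervals do not cover. Taking only transcripts of the same length in the deposited tables and in GENCODE 29 left CDK4 at log2 -2.61 (-2.80 to -2.43) over GST.

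The division of CDKN2A also differed between libraries. CDKN2A-213, which starts with the first exon of p16, had 1867 estimated counts with wild-type ZFP36L1, 0 with the mutant and 311 with GST. That 0 is an assignment of reads shared between transcripts, so no upper limit is given for it. CDKN2A-212, which holds the first exon of neither p16 nor p14ARF, had 1615 with wild-type ZFP36L1, 2649 with the mutant and 2759 with GST. Gene totals that differed little were thus assigned to different transcripts in the wild-type and mutant libraries. The reference transcripts of p16 (CDKN2A-201) and of p14ARF (CDKN2A-214) were listed at 0 in every library. CDKN2A-213 and CDKN2A-212 share 424 of their 31-mers, and neither has a 31-mer that is absent from all other transcripts of the gene. The counting intervals do not cover how reads were divided among such transcripts.

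Genes that act with these kinases were listed by role. Of the 14 other CDKs measured of 16, 4 were higher and 6 lower in the wild-type library than with GST. The shares over all measured genes were 25.5% higher and 34.2% lower. The median of these CDKs was -0.07 relative to all genes. CDK8, a kinase of the Mediator complex, had 1307 estimated counts with wild-type ZFP36L1 and 313 with GST (log2 1.98, 1.80 to 2.16). CDK16 had 1043 with wild-type ZFP36L1 and 3987 with GST (-2.02, -2.12 to -1.92), and CDK10 had 67 with wild-type ZFP36L1 and 452 with GST (-2.83, -3.23 to -2.46). CDK11A had 0 counts with wild-type ZFP36L1 and 125 with GST, at least 44.1-fold lower against a floor of 3 counts per library, but its reads may be divided with its near-identical neighbour CDK11B, which was not measured. With the mutant 4 of the 14 were higher than with GST and none lower, against 9.01% and 5.13% of all measured genes. The 4 were CDK3 (67 counts with the mutant and 12 with GST, log2 2.57, 1.72 to 3.64), CDK11A (1.80), CDK10 (1.19) and CDK5 (1.17).

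The 3 other CDK inhibitors had ratios of wild type to GST above 0, as did each inhibitor among the members except CDKN3. Of these 3, 2 were higher and none lower, against 25.5% and 34.2% of all measured genes. With the mutant none was higher or lower than with GST, against 9.01% and 5.13%. Their intervals of mutant over GST included 0, at log2 -1.08 (CDKN1C), -0.51 (CDKN2B) and 0.01 (CDKN2D). CDKN1C (p57) had 47 estimated counts with wild-type ZFP36L1, 4 with the mutant and 10 with GST, a log2 ratio of 2.10 (1.15 to 3.30) over GST. CDKN2B (p15) had 158 counts with wild-type ZFP36L1, 42 with the mutant and 66 with GST (1.17, 0.75 to 1.61). CDKN2D (p19) had 172 counts with wild-type ZFP36L1, 95 with the mutant and 104 with GST and stayed under 2-fold (0.64, 0.28 to 1.01).

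Among 18 genes of CDK activation and inhibitor turnover, 6 were higher and 4 lower in the wild-type library than with GST. The shares over all measured genes were 25.5% and 34.2%. The median of these 18 genes was 0.11 relative to all genes. With the mutant none of the 18 was higher or lower than with GST, against 9.01% and 5.13% of all measured genes. The partners of CDK7 in the CDK-activating kinase were both higher: cyclin H (CCNH) had 2355 counts with wild-type ZFP36L1 and 772 with GST (log2 1.53), and MNAT1 had 1458 with wild-type ZFP36L1 and 455 with GST (log2 1.60). The CDC25 phosphatases, which remove inhibitory phosphates from CDK1 and CDK2, had CDC25B (266 counts with wild-type ZFP36L1 and 2204 with GST, log2 -3.13) and CDC25C (39 with wild-type ZFP36L1 and 346 with GST, log2 -3.22) lower, and CDC25A at 0.26. The kinases that add those phosphates lay apart, with WEE1 higher (3351 counts with wild-type ZFP36L1 and 1427 with GST, log2 1.15) and PKMYT1 lower (301 with wild-type ZFP36L1 and 1824 with GST, log2 -2.68). DDB1, an adaptor of the CUL4 ubiquitin ligase, was also lower (707 counts with wild-type ZFP36L1 and 3561 with GST, log2 -2.41). Of 7 cyclin partners measured of 8, CCNE1 was higher (log2 1.51), and CCNB2 (-2.47) and CCNE2 (-2.51, with 10 counts for wild type and 56 for GST) were lower. These stand beside the same shares of 25.5% and 34.2% over all measured genes. The partners of CDK4 stood at 0.15 (CCND1) and -0.92 (CCND3).

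Over the 42 genes of these lists, those nearest to the members in both log2 ratios to GST (Euclidean distance, 3 libraries) were CDK8 for CDK7 (0.06 away), PKMYT1 for CDK4 (0.09) and MNAT1 for CDK6 (0.10). RBX1 lay nearest to CDKN2A (0.11), CDKN2B to CDKN1B (0.15), CDK19 to CDKN2C (0.20), CUL4A to CDKN3 (0.20), DTL to CDK1 (0.24), CCNB1 to CDK2 (0.26) and CDKN2D to CDKN1A (0.32).

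**Figure D5:**
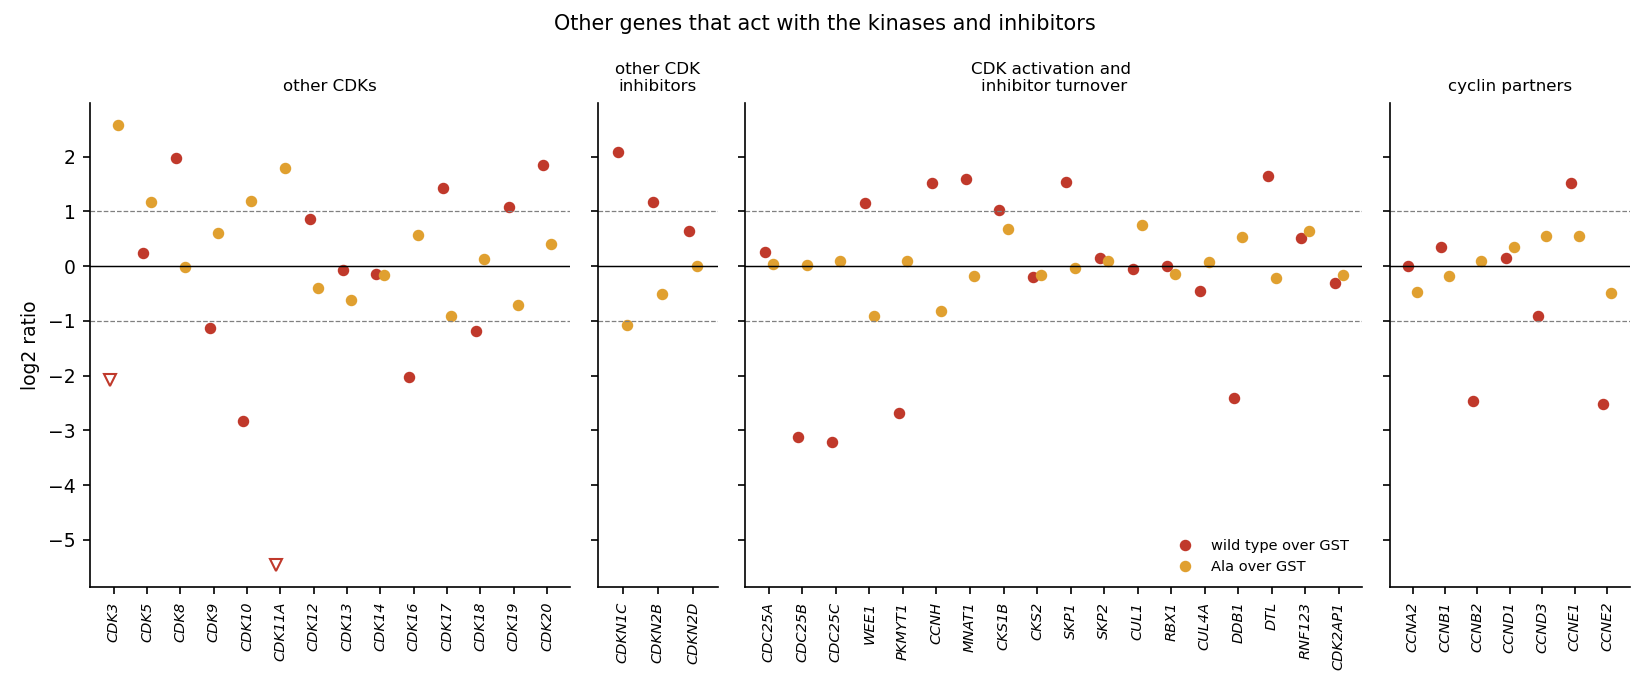
Log2 ratios of wild type over GST (red) and Ala over GST (yellow) for the measured genes of the 4 lists; open triangles mark upper bounds for genes at 0 with wild-type ZFP36L1 (CDK3 and CDK11A), and dashed lines mark 2-fold. CCNH and MNAT1 lie above 1 and CDC25B, CDC25C, PKMYT1 and DDB1 below -2 for wild type over GST, while Ala over GST passes 2-fold upwards in 4 of the other CDKs.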

How the data were processed

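The authors deposited 1 table per library with the estimated count and TPM of 196354 transcripts, per the file headers. Per the submitters' processing notes, kallisto, DESeq2 and hg19 were used. Their roles, their versions and the annotation release were not stated in the sources used here. Transcripts were joined by identifier to GENCODE 29 (GRCh38), which matched 92.6%. Coordinates and sequences are from GENCODE 29, with none from hg19. Estimated counts were summed per gene and rounded, and genes with a mean of at least 10 counts were kept (14081). Libraries were scaled with TMM (edgeR 4.0.16), with 0.5 added to counts before log2 ratios. The call was checked only on simulated counts with counting error alone and few altered genes. That check cannot show how calls behave with spread between replicates, or where many genes differ as here.

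Members, lists and tests were chosen with earlier results of these data known. Named genes were all members, up to 4 genes per list and comparison whose interval bound lay farthest from 0, and the nearest listed gene of each member. CDC25A, TSPAN31 and the marker genes shown by value were named after their values were seen. Other settings were totals with or without abundant genes, size factors of DESeq2 1.42.0, TPM with pseudocounts of 0.5 and 0.1, minimum counts, transcript subsets, a prior count of 5, a fit on GC and length (with the median of all genes kept), and a 1.5-fold threshold.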

Additional observations from a re-analysis of the deposited data

How the results depend on the processing

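No paired analysis was possible because each protein had 1 library. CDK7, CDK4 and CDKN2C kept their direction and stayed past 2-fold in both comparisons with the wild-type library under each of the 12 alternatives. With the fit on GC content and length removed, 1 kinase and 3 inhibitors were higher than with GST, and 1 kinase and 1 inhibitor lower. Of all 14081 genes, 2890 were then higher and 3214 lower. Against the mutant, 1 kinase and 4 inhibitors were higher, and 1 kinase and 1 inhibitor lower. For that comparison 3146 of all genes were higher and 3431 lower. Relative to all genes, the medians of kinases and inhibitors then came to 0.69 and 1.45 (wild type over GST), 0.65 and 2.15 (wild type over Ala), and 0.0811, of opposite sign, and -0.45 (Ala over GST). With TPM the kinase median for wild type over Ala was 1.57 with a pseudocount of 0.5 and 1.81 with 0.1. With both, 1 inhibitor, CDKN2C, was lower in Ala over GST, beside 739 and 1053 of 11925 genes. With a minimum mean of 100 counts 1 inhibitor was higher than with GST, beside 2572 of 9645 genes. With protein-coding transcripts only it was also 1, beside 2847 of 10995 genes. At 1.5-fold, 1 inhibitor was lower in each comparison. Of all 14081 genes, 5431 were then lower in wild type over GST, 5658 in wild type over Ala and 1829 in Ala over GST. In the main setting 1268 of 14081 genes were higher and 722 lower in Ala over GST. Those higher, of the same 14081, numbered 778 with totals without abundant genes, 575 with the fit, 939 with total counts and 2627 at 1.5-fold. They numbered 548 and 680 of 11925 genes with TPM (pseudocounts of 0.5 and 0.1), and 581 of 9645 with the minimum of 100. Those lower, of 14081, numbered 1237 with totals without abundant genes, 560 with the fit, 1018 with total counts and 1829 at 1.5-fold. They numbered 1167 of 25018 genes with no minimum and 362 of 9645 with the minimum of 100. TPM, other minimum counts and transcript subsets also altered the number of genes measured. Apart from the fit and the changed threshold, whose construction alters the ratio or the limit itself, the cause was not tested. No member had under 379 counts in a library, and the spread between replicates is unknown.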

Other observations

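Of the 91 transcripts of the 10 genes, 5 of 8 in CDK1, 8 of 12 in CDK2, 8 of 15 in CDK4, 9 of 13 in CDK7 and 7 of 14 in CDKN2A were at 0 in all 3 libraries. In CDKN3, which had none at 0 throughout, CDKN3-205 had 150 estimated counts with wild-type ZFP36L1, 214 with the mutant and 555 with GST. CDKN3-202 had 111 with the mutant and under 0.1 with the wild-type protein and with GST. CDKN3-202 has no 31-mer absent from all other transcripts of the gene, and CDKN3-205 has 29. These counts are thus assignments of reads largely shared between transcripts. Of the listed genes CDK11B, CDK15 and CCND2 were not measured.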
